A study of Mus musculus with 46 samples.

Results

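The last step of CD8 T-cell formation in the thymus was examined in mice with an LMO2 transgene, by setting CD8 single-positive (CD8SP) thymocytes beside the double-positive (DP) thymocytes they come from. The comparison used every RNA library labelled transgenic (TG) CD8SP or TG DP, which were 3 and 3, or 6 of the 40 RNA libraries of the series. The TG mice were C57BL/6 with the genotype hCD2-LMO2 knock-in, in which control elements of the human CD2 gene, active in T-lineage cells, drive LMO2. The labels do not say which species' LMO2 sequence was inserted, so how fully reads at the mouse gene Lmo2 measure the transgene is unknown. Wild-type (WT) C57BL/6 mice gave 3 CD8SP and 3 DP libraries for the same step. All 12 libraries came from sorted primary thymocytes of mice kept in specific-pathogen-free housing. The labels give no age or sex, and do not say whether libraries of a group came from separate animals, so the p-values below measure the spread between these libraries.

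DP thymocytes carry both coreceptors, CD4 and CD8, and rearrange the T-cell receptor alpha chain with the RAG recombinase. A DP cell whose receptor binds an MHC class I molecule is positively selected, turns off CD4 and the recombinase, takes up the RUNX3-driven CD8 program and, late in maturation, gains the receptors that let it leave the thymus. LMO2 binds no DNA itself and links factors such as TAL1, GATA proteins and LDB1 in early blood cells. It is normally silent at these stages, and its forced expression in T-lineage cells is a known route to T-cell leukaemia.

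Read counts per gene were given for 19521 genes, and the 12 libraries held 21432962 to 28820075 reads. Levels are given below as CPM, counts relative to the library's reads, scaled by the trimmed mean of M values over the 12 libraries, and listed in the order of replicates 1, 2 and 3. Changes are log2 fold changes of CD8SP over DP with their standard error (n = 3 libraries each) and p-values adjusted by Benjamini-Hochberg over all genes tested, with a threshold of 0.05, from edgeR's quasi-likelihood test.

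Lmo2, which checks the genotype, was read at 39.9, 33.8 and 68.8 CPM in TG CD8SP, against 76.5, 67.9 and 0.384 CPM in TG DP. It was at 0.881, 0.285 and 0.252 CPM in WT CD8SP and 0.460, 0.118 and 0.236 CPM in WT DP. The library labelled TG DP replicate 3 held 11 Lmo2 reads, within the 3 to 19 of the WT libraries, and goes against its genotype label. Tbx4, a T-box factor read at 29.9, 43.1 and 35.8 CPM in TG CD8SP and 37.3, 45.0 and 0 CPM in TG DP, had no read in that library (3 reads would be 0.105 CPM) and at most 1 read in any WT library. Across genes, the Spearman correlation of that library was 0.984 to 0.988 with the WT DP libraries and 0.958 to 0.97 with the other two TG DP libraries. The TG log2 fold changes of named genes and the list medians below are therefore given also without it, while counts from the paired test and overlaps with WT use all 6 TG libraries.

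A second library stood apart within TG CD8SP. Cd4 was at 142, 156 and 1356 CPM there, and the summed level of the 18 DP genes was 5707, 5172 and 16030 CPM in TG CD8SP, against 18880, 16030 and 21370 CPM in TG DP. TG CD8SP replicate 3 was thus level with the lowest TG DP library for this sum. WT CD8SP replicate 3 was also the highest of its group, with sums of 5542, 4340 and 10810 CPM in WT CD8SP, against 24630, 21080 and 21200 CPM in WT DP. Per length, in the deposited FPKM, Cd4 was at 49.4, 51.3 and 458 in TG CD8SP and Cd8a at 542, 342 and 714, against 818, 616 and 820.2 for Cd4 and 1094, 801 and 1100 for Cd8a in TG DP. By Cd4, TG CD8SP replicates 1 and 2 stood apart from DP as their label says, and replicate 3 was closer to DP. Cd8a was lower in each TG CD8SP library than in each TG DP library, and lowest in replicates 1 and 2. In bulk samples, fewer cells of a type and less RNA per cell cannot be told apart.

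Summed levels of marker lists for mast cells, B cells and dendritic cells were high in TG CD8SP replicate 2. The mast-cell sum was also high in TG DP replicate 2. The 9 mast-cell and basophil markers summed to 22.6, 294 and 18.8 CPM in TG CD8SP and 18.6, 204.8 and 5.13 CPM in TG DP. Of the 9, 6 had no read in TG CD8SP and 6 had none in TG DP. The 3 tested were Hdc, Kit and Cpa3, and Kit and Cpa3 also mark double-negative and immature single-positive thymocytes. The 12 markers listed for those stages summed to 1936, 2836 and 1467 CPM in TG CD8SP and 1404, 2320 and 1093 CPM in TG DP, again highest in replicates 2. These sums do not tell mast cells from those stages. The 11 B-cell markers summed to 81.4, 1464 and 73.9 CPM in TG CD8SP and 112, 181 and 83.3 CPM in TG DP, and the 8 dendritic-cell markers to 21.3, 220.4 and 13.4 CPM in TG CD8SP and 14.7, 30.3 and 12.7 CPM in TG DP. TG CD8SP replicate 2 was the high library in both, with Cd74 at 57.7, 1129 and 34.2 CPM in TG CD8SP. Their part in the results below was not tested.

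In the comparison of all 6 TG libraries, 0 of 11741 genes (0%) passed the threshold, and the smallest adjusted p was 0.126. At an unadjusted p under 0.05 there were 2660 genes, or 22.7%, of which 1468 were higher and 1192 lower in TG CD8SP. Without the library labelled TG DP replicate 3 the count was again 0 of 11937 genes (0%), with 2288 at an unadjusted p under 0.05 (19.2%). Without TG CD8SP replicate 3, 555 genes rose (4.58%) and 707 fell (5.83%), 1262 of 12125 (10.4%). Without both replicates 3, 452 rose (3.8%) and 620 fell (5.21%), 1072 of 11909 (9%). Leaving out any of the other 4 libraries gave 0. With the replicate number as a block, called the paired test below, all 6 libraries gave 507 genes that rose and 334 that fell, 841 of 11741 (7.16%). The block takes up residual degrees of freedom, so the paired test leaves few of them, fewer than the unpaired test that gave 0 genes. This test pairs TG CD8SP replicate 3 with the library labelled TG DP replicate 3, which goes against its genotype label. Of its 507 and 334 genes, 275 and 181 (54.2% each) also passed, in the same direction, in the unpaired fit without both replicates 3. That fit shares its libraries with the paired test. The paired test without the library labelled TG DP replicate 3 called 39.3% of genes with 1 residual degree of freedom, and is not used further. DESeq2 on all 6 libraries called 1208 genes, 723 higher and 485 lower in TG CD8SP, and without the library labelled TG DP replicate 3 it called 751. The same step in WT gave 4408 of 11691 genes (37.7%), 2434 that rose (20.8%) and 1974 that fell (16.9%), without pairing, and 46.4% with it. That WT count was 2163, 2437, 2901 and 2647 when WT CD8SP replicate 1 or 2 or WT DP replicate 2 or 3 was left out. It was 5495 without WT DP replicate 1. WT DP replicates 2 and 3 were the closest libraries within a group (Spearman correlation 0.998), and the part of this in the WT count was not tested.

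**Figure D1:**
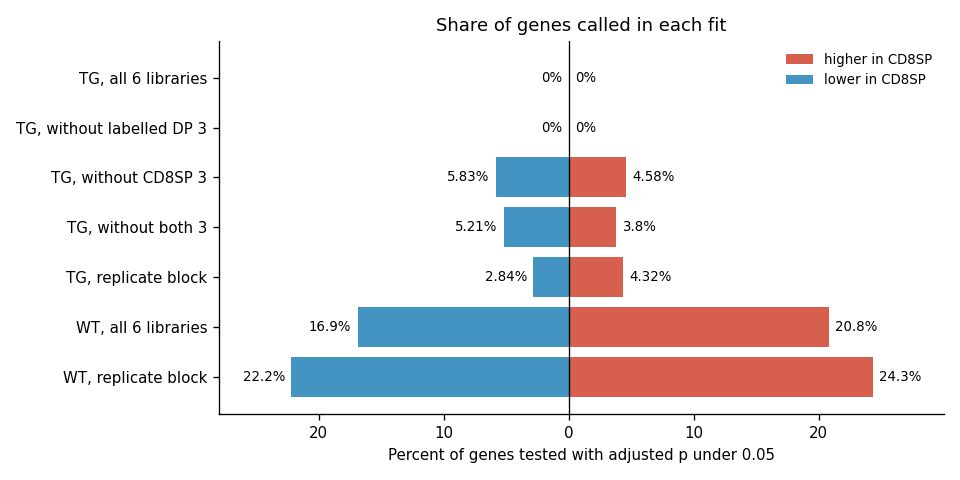
Share of the genes tested, in percent, with an adjusted p under 0.05 in edgeR's quasi-likelihood test for CD8SP over DP, in 5 fits of the TG libraries and 2 of the WT libraries; red bars run right for genes higher in CD8SP and blue bars run left for genes lower in CD8SP. The TG fits shown reach 4.58% higher and 5.83% lower at most, and the WT fits 24.3% and 22.2%.

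Most genes that passed in the paired TG test also passed in WT, in the same direction. Of the 507 that rose, 477 also rose in WT, which is 94.1% of the TG genes and 19.6% of the 2434 WT genes. Of the 334 that fell, 283 also fell in WT, which is 84.7% of the TG genes and 14.3% of the WT genes, and 1 of the 334 rose in WT. Over all genes tested in WT, 20.8% rose and 16.9% fell. Read from the other side, the 2366 genes that rose in WT and were tested in TG had a median log2 fold change of 0.60 in TG and 1.02 in WT, and 92.3% were above 0 in TG. The 1947 that fell in WT had medians of -0.57 in TG and -0.88 in WT, with 96.5% below 0 in TG. The median over all genes tested was -0.01 in TG and -0.03 in WT. Both sets of genes were chosen for passing in WT, which by itself favours larger changes in WT than in TG. The TG medians and the shares above also include the TG libraries that stood apart. Among these is the library labelled TG DP replicate 3, which lay near WT DP. These shares and medians were not taken without it, so they mix TG with a library that resembles WT. The gap between the TG and WT medians of these sets is therefore not a measure of a genotype difference, which was not tested here.

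Genes of the DP stage were lower in TG CD8SP, clearly so in replicates 1 and 2. Of 18 DP genes, all tested, 5 fell in the paired TG test, where 2.84% of all genes fell, and 11 fell without TG CD8SP replicate 3, where 5.83% did. None rose in either. Their median log2 fold change was -0.96 with all 6 TG libraries and -0.91 without the library labelled TG DP replicate 3, and -1.21 in WT, where 14 of the 18 fell (16.9% of all genes).

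Rag1, a subunit of the recombinase, was at 1197, 681 and 5858 CPM in TG CD8SP, against 6609, 5356 and 7626 CPM in TG DP. TG CD8SP replicates 1 and 2 were far below every DP library, and replicate 3 lay within their range. The log2 fold change was -1.35 ± 0.77 with all 6 libraries (adjusted p = 0.329), -1.22 ± 0.90 without the library labelled TG DP replicate 3 (adjusted p = 0.474) and -2.81 ± 0.35 without TG CD8SP replicate 3 (adjusted p = 0.0185). Rag2, the other subunit, fell by 2.09 in the paired test (adjusted p = 0.0321), and had -1.19 ± 0.85 without the library labelled TG DP replicate 3 (adjusted p = 0.460).

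Cd4 averaged 551 ± 697 CPM in TG CD8SP and 2242 ± 297 CPM in TG DP (SD, n = 3 each), with no overlap between the groups. Its log2 fold change was -2.03 ± 0.90 with all 6 libraries (adjusted p = 0.237), -1.996 ± 1.04 without the library labelled TG DP replicate 3 (adjusted p = 0.337) and -3.93 ± 0.24 without TG CD8SP replicate 3 (adjusted p = 0.0141). In WT the change was -2.84 ± 1.04 with an adjusted p of 0.0620, where replicate 3 was again the high one at 816 CPM.

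Plxnd1, a semaphorin receptor that guides thymocyte migration, was at 69.1, 104 and 376 CPM in TG CD8SP, against 761, 614 and 910.1 CPM in TG DP. It fell by 2.45 in the paired test (adjusted p = 0.0432) and was at -1.92 ± 0.73 without the library labelled TG DP replicate 3 (adjusted p = 0.251). Ccr9, the receptor for the thymic chemokine CCL25, was at 279, 198 and 773 CPM in TG CD8SP and 738, 745 and 1176 CPM in TG DP, with overlap, and fell in the paired test (adjusted p = 0.0396), with -0.84 ± 0.57 without the library labelled TG DP replicate 3. Bcl2l1, whose product Bcl-xL keeps DP cells alive, was at 113, 96.7 and 267 CPM in TG CD8SP, against 426, 306 and 352 CPM in TG DP. The groups of Bcl2l1 did not overlap, and it fell without TG CD8SP replicate 3 (log2 -1.80 ± 0.22, adjusted p = 0.0185), had -1.21 ± 0.47 without the library labelled TG DP replicate 3, but missed the threshold in the paired test (adjusted p = 0.0572).

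Ptcra, the pre-T-cell receptor alpha chain of earlier stages, was at 54.6, 57.6 and 81.7 CPM in TG CD8SP and 136, 117 and 48.3 CPM in TG DP. The library labelled TG DP replicate 3 was the lowest of the 6 and close to the 34.1 to 40.6 CPM of WT DP. Its log2 fold change was -0.65 ± 0.37 with all 6 libraries (adjusted p = 0.325) and -0.98 ± 0.23 without that library (adjusted p = 0.232).

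Both chains of the CD8 coreceptor were lower in CD8SP than in DP. Cd8a was at 1580, 1047 and 2146 CPM in TG CD8SP, against 3347, 2502 and 3178 CPM in TG DP, and fell by 0.98 in the paired test (adjusted p = 0.0375). Cd8b1 was at 669, 452 and 1586 CPM in TG CD8SP, against 2891, 1973 and 2487 CPM in TG DP, and fell by 1.65 (adjusted p = 0.0434). In neither did the groups overlap. Without the library labelled TG DP replicate 3 the log2 fold changes were -0.89 ± 0.32 for Cd8a and -1.44 ± 0.54 for Cd8b1, with adjusted p of 0.239 and 0.242. In WT both fell, with log2 fold changes of -0.86 for Cd8a and -1.003 for Cd8b1.

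Of 20 coreceptor and lineage genes, 3 fell (2.84% of all genes) and none rose in the paired TG test, and 10 fell and 1 rose of 19 tested in WT (16.9% and 20.8% of all genes). Their median log2 fold change was -0.248 with all 6 TG libraries and -0.305 without the library labelled TG DP replicate 3. Bcl11b, a zinc-finger factor of T-cell identity, was at 726, 579 and 859 CPM in TG CD8SP, against 1443, 1177 and 1340 CPM in TG DP, and fell by 0.90 (paired, adjusted p = 0.0339), with -0.87 ± 0.23 without the library labelled TG DP replicate 3. Cbfb, the partner subunit of RUNX proteins, was at 274, 279 and 271 CPM in TG CD8SP, against 122, 187 and 194 CPM in TG DP, without overlap and with a paired adjusted p of 0.0610, and had 0.83 ± 0.22 without the library labelled TG DP replicate 3. Zbtb7b, the factor of the CD4 lineage, was low in all TG libraries, at 0.542, 5.01 and 2.47 CPM in TG CD8SP and 3.62, 2.56 and 3.35 CPM in TG DP, with overlap, and its log2 fold change was -0.27 ± 0.71 with all 6 libraries and -0.23 ± 0.84 without that library.

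Runx3, the factor that holds cells in the CD8 lineage, was at 102, 109.9 and 62.9 CPM in TG CD8SP and 66.9, 80.5 and 31.4 CPM in TG DP, with overlap. In WT it was at 118, 126 and 76.9 CPM in CD8SP and 24.1, 16.8 and 17.7 CPM in DP, without overlap. The TG DP libraries were all above the WT DP range, and the TG CD8SP libraries overlapped the WT CD8SP range. The log2 fold change was 0.61 ± 0.36 in TG with all 6 libraries (adjusted p = 0.340), 0.30 ± 0.27 without the library labelled TG DP replicate 3 (adjusted p = 0.544) and 2.46 ± 0.24 in WT (adjusted p = 0.000545). The difference between those changes was -1.83 ± 0.47 with all 12 libraries (adjusted p = 0.196, or 0.0283 when paired) and -2.14 ± 0.37 without the library labelled TG DP replicate 3 (adjusted p = 0.0510).

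Many genes of the CD8 lineage and of cytotoxic function were higher in TG CD8SP. Of 23 such genes 20 were tested in TG, and 9 rose and 2 fell in the paired test, where 4.32% of all genes rose and 2.84% fell. The 2 that fell were the coreceptor chains Cd8a and Cd8b1. The median log2 fold change was 2.07 with all 6 libraries and 1.70 without the library labelled TG DP replicate 3. In WT 15 rose and 2 fell of 19 tested (20.8% and 16.9% of all genes), with a median of 3.38.

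Il2rb, the receptor chain shared by interleukins 2 and 15, was at 77.0, 98.8 and 42.5 CPM in TG CD8SP, against 11.9, 11.9 and 8.66 CPM in TG DP. In WT it was at 219, 225 and 126 CPM in CD8SP, against 2.12, 3.91 and 3.90 CPM in DP. Every TG CD8SP library was above every TG DP library and below every WT CD8SP library, and every TG DP library was above the WT DP libraries. It rose by 2.67 ± 0.21 in the paired TG test (adjusted p = 0.00617). The change was 2.74 ± 0.33 with all 6 libraries (adjusted p = 0.126), 2.60 ± 0.38 without the library labelled TG DP replicate 3 (adjusted p = 0.232), and 5.86 ± 0.34 in WT (adjusted p = 0.000138).

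Itgae, the integrin alpha chain CD103 of CD8SP thymocytes, was at 96.2, 47.8 and 36.3 CPM in TG CD8SP, against 8.53, 2.71 and 7.23 CPM in TG DP. In WT it was at 219, 335 and 150.4 CPM in CD8SP, against 0.690, 2.01 and 1.10 CPM in DP. It rose in the paired TG test, by 3.29 ± 0.37 (adjusted p = 0.0197), and in WT, by 7.53 ± 0.47 (adjusted p = 0.000147). As ratios these were 9.78-fold in TG and 185-fold in WT, and without the library labelled TG DP replicate 3 the TG log2 value was 3.40 ± 0.69 (adjusted p = 0.232).

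Nkg7, a cytotoxic granule membrane protein, was at 44.2, 57.8 and 18.9 CPM in TG CD8SP, against 6.13, 19.5 and 3.04 CPM in TG DP. The groups overlapped, because TG CD8SP replicate 3 was just below TG DP replicate 2. In WT it was at 116, 138 and 67.3 CPM in CD8SP and under 1 CPM in each DP library. It rose by 2.33 ± 0.30 in the paired TG test (adjusted p = 0.0197) and by 7.09 ± 0.40 in WT (adjusted p = 0.000138), and was at 1.65 ± 0.65 without the library labelled TG DP replicate 3 (adjusted p = 0.254).

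Ctsw, a cathepsin of cytotoxic lymphocytes, was at 41.2, 29.6 and 20.7 CPM in TG CD8SP, against 10.2, 8.56 and 5.76 CPM in TG DP, and at 96.4, 167 and 71.0 CPM in WT CD8SP, against 2.94, 3.67 and 2.95 CPM in WT DP. It rose by 1.87 ± 0.20 in the paired TG test (adjusted p = 0.0124), with 1.69 ± 0.34 without the library labelled TG DP replicate 3 (adjusted p = 0.232), and by 5.14 ± 0.35 in WT. Cd160, a receptor of cytotoxic lymphocytes, was at 18.4, 8.54 and 6.91 CPM in TG CD8SP, against 2.69, 2.13 and 1.71 CPM in TG DP, and rose by 2.26 ± 0.32 (paired, adjusted p = 0.0197). Klrd1, the CD94 chain of lectin-like receptors, was low throughout TG, at 2.48, 2.32 and 1.24 CPM in CD8SP and 0.609, 0.145 and 0.140 CPM in DP, and rose in the paired test (adjusted p = 0.0406). Omitting the library labelled TG DP replicate 3 gave 2.22 ± 0.53 for Cd160 and 2.36 ± 0.82 for Klrd1, neither past the threshold.

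Gzma, which encodes granzyme A, was at 154, 170.3 and 114 CPM in TG CD8SP, against 31.5, 44.3 and 28.7 CPM in TG DP, and at 59.6, 74.9 and 53.5 CPM in WT CD8SP, against 13.2, 17.6 and 19.5 CPM in WT DP. It rose by 2.06 ± 0.16 in the paired TG test (adjusted p = 0.00617) and by 1.92 ± 0.19 in WT, and the TG value without the library labelled TG DP replicate 3 was 1.94 ± 0.26 (adjusted p = 0.232). Each TG group was above the matching WT group in every library.

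Prf1, which encodes perforin and was singled out after its values were seen, was at 5.73, 4.63 and 6.36 CPM in TG CD8SP, against 8.35, 7.79 and 7.54 CPM in TG DP. All TG CD8SP libraries were below all TG DP libraries. Its WT levels were 29.3, 27.0 and 14.7 CPM in CD8SP, against 5.98, 3.55 and 4.13 CPM in DP, with all CD8SP libraries above. The log2 fold change was -0.51 ± 0.28 in TG with all 6 libraries (adjusted p = 0.307), -0.54 ± 0.33 without the library labelled TG DP replicate 3 (adjusted p = 0.379) and 2.39 ± 0.32 in WT (adjusted p = 0.00171).

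The promoters of the cytotoxic genes Nkg7, Prf1 and Gzma are shown because the TG and WT changes were far apart in Nkg7 and Prf1 and close in Gzma. The log2 fold changes were 2.07 in TG and 7.09 in WT for Nkg7, -0.51 in TG and 2.39 in WT for Prf1, and 2.06 in TG and 1.92 in WT for Gzma. The sequences are RefSeq windows of build GRCm38.p6, from 250 bases before to 50 bases after the start of the gene, 5′ to 3′ on the gene's strand. Capitals mark the letters TGTGGT, the core that RUNX factors bind, found in these windows as its reverse complement ACCACA. The windows lie at chr7:43436888-43437187 on the + strand for Nkg7, chr10:61297586-61297885 on the + strand for Prf1 and chr13:113100932-113101231 on the - strand for Gzma.
Nkg7: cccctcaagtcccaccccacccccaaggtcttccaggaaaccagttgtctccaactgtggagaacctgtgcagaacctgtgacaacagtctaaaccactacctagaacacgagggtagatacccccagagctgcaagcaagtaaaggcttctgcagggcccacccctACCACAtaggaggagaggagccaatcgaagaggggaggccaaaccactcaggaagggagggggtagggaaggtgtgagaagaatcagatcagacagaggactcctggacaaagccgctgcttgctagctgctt
Prf1: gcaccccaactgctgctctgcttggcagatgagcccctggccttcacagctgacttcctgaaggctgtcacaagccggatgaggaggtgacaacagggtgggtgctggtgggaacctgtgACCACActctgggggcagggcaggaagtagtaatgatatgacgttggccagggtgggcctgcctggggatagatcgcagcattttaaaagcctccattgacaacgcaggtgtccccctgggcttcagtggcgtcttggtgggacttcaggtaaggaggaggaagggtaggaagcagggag
Gzma: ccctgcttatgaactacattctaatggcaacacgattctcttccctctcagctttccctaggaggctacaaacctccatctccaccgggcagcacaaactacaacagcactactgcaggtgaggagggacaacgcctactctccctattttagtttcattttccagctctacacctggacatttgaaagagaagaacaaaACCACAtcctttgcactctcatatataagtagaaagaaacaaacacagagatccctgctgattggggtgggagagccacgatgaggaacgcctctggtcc

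Each window held 1 match, which starts 83 bases before the gene's start in Nkg7, 130 before in Prf1 and 50 before in Gzma. Of the 23 CD8 and cytotoxic genes, 16 matched the promoter table, with 19 windows. TGTGGT on either strand was in 11 of the 19 windows (57.9%), and in 5506 of all 32851 windows in the table (16.8%). The E-box letters CAGNTG, the kind of site that helix-loop-helix partners of LMO2 bind, were in 14 of the 19 windows (73.7%) and in 16892 of all windows (51.4%). No binding was measured here, and a match is a description of the letters.

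**Figure D2:**
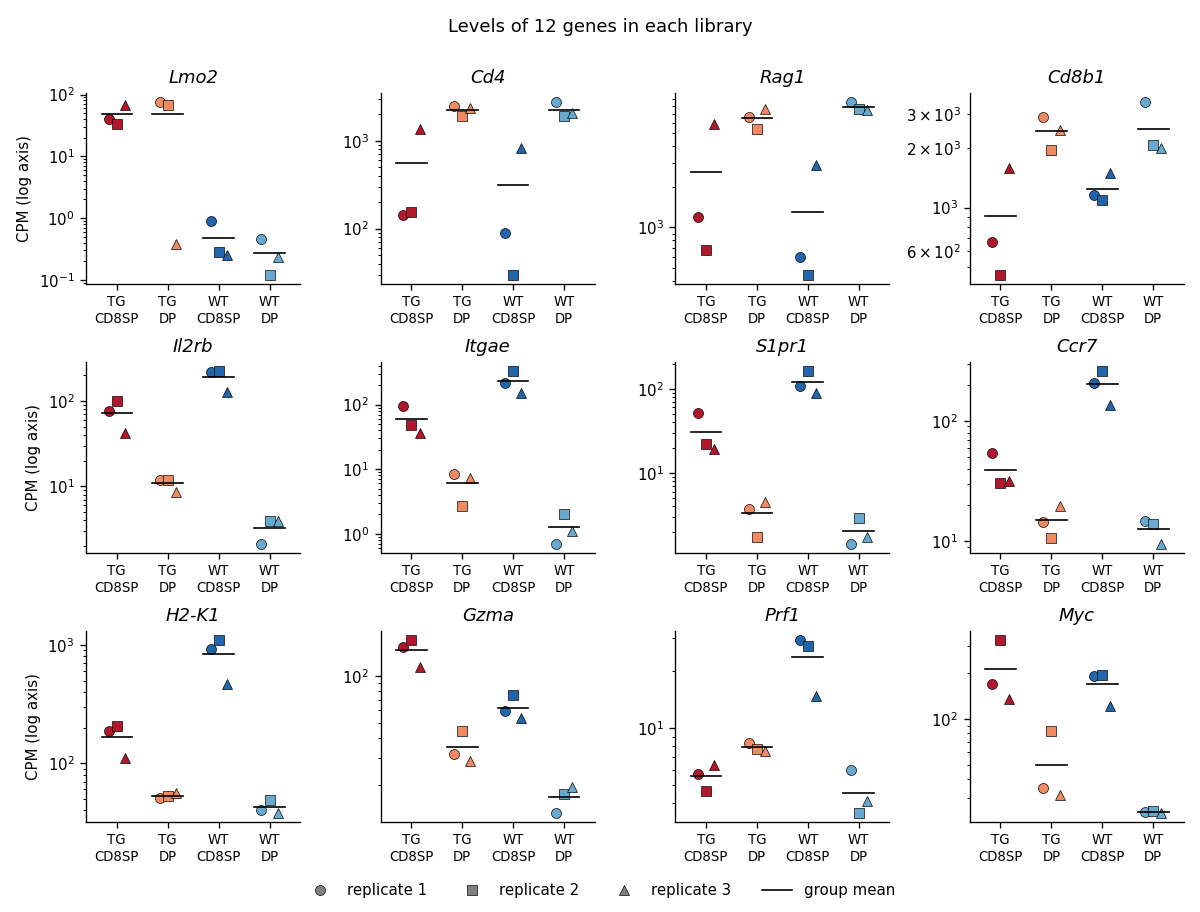
Levels of 12 genes in CPM on a log axis, with 1 panel per gene and TG CD8SP, TG DP, WT CD8SP and WT DP side by side; points are single libraries, the marker shape gives the replicate number, and the line is the mean of 3 libraries. The library labelled TG DP replicate 3 sits at 0.384 CPM for Lmo2, TG CD8SP replicate 3 sits near DP for Cd4 and Rag1, and TG CD8SP lies between DP and WT CD8SP for Il2rb, Itgae, S1pr1, Ccr7 and H2-K1.

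Genes of late maturation and of thymic exit were also higher in TG CD8SP in part. Of 31 such genes 30 were tested in TG, and 13 rose and 2 fell in the paired test, where 4.32% of all genes rose and 2.84% fell. The median log2 fold change was 0.71 with all 6 libraries and 0.67 without the library labelled TG DP replicate 3. In WT 22 rose and 3 fell of 31 (20.8% and 16.9% of all genes), with a median of 2.22.

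S1pr1, the sphingosine receptor that draws mature cells out of the thymus, was at 51.1, 22.3 and 19.2 CPM in TG CD8SP, against 3.69, 1.74 and 4.54 CPM in TG DP. The WT libraries held 108, 164 and 88.0 CPM in CD8SP, against 1.43, 2.88 and 1.73 CPM in DP. The TG groups did not overlap, and each TG CD8SP library was below each WT CD8SP library. It rose by 3.16 ± 0.39 in the paired TG test (adjusted p = 0.0197) and by 5.91 ± 0.36 in WT, and was at 3.48 ± 0.61 without the library labelled TG DP replicate 3 (adjusted p = 0.232).

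Klf2, the transcription factor that turns on S1pr1, was at 91.9, 47.9 and 31.7 CPM in TG CD8SP and 34.0, 8.22 and 12.5 CPM in TG DP. The groups overlapped between TG CD8SP replicate 3 and TG DP replicate 1. Wild-type levels were 194, 201 and 123.01 CPM in CD8SP, against 10.4, 7.38 and 6.33 CPM in DP. It rose by 1.75 ± 0.27 in the paired TG test (adjusted p = 0.0246), had 1.42 ± 0.73 without the library labelled TG DP replicate 3 (adjusted p = 0.333), and rose by 4.44 ± 0.29 in WT.

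Ccr7, the chemokine receptor that leads selected cells into the medulla, was at 54.6, 30.7 and 31.9 CPM in TG CD8SP, against 14.4, 10.6 and 19.8 CPM in TG DP. WT cells had it at 209, 262 and 136 CPM in CD8SP, against 14.8, 13.9 and 9.48 CPM in DP. The ratio was 2.59-fold in the paired TG test (adjusted p = 0.0339) and 16.1-fold in WT (adjusted p = 0.000229). Without the library labelled TG DP replicate 3 the TG log2 fold change was 1.63 ± 0.34 (adjusted p = 0.232).

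Il7r, the interleukin 7 receptor chain that CD8SP cells regain, was at 34.0, 47.5 and 25.7 CPM in TG CD8SP, against 4.30, 12.7 and 5.38 CPM in TG DP, and at 131, 137 and 85.7 CPM in WT CD8SP, against 3.63, 6.83 and 4.76 CPM in WT DP. It rose by 2.36 ± 0.26 in the paired TG test (adjusted p = 0.0135) and by 4.55 ± 0.29 in WT. Ms4a4b, a membrane protein of mature T cells, was at 75.4, 59.4 and 38.5 CPM in TG CD8SP, against 9.28, 5.47 and 12.3 CPM in TG DP, and rose by 2.69 ± 0.38 (paired, adjusted p = 0.0246). Without the library labelled TG DP replicate 3, Il7r was at 2.07 and Ms4a4b at 2.95 on the log2 scale, with an adjusted p of 0.232 each.

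Nsg2, the member with the larger decrease of the 2 that fell, was at 158, 120.2 and 395 CPM in TG CD8SP, against 653, 491 and 738 CPM in TG DP (paired log2 -1.67 ± 0.27, adjusted p = 0.0250). It also fell in WT (log2 -1.34), and had -1.36 in TG without the library labelled TG DP replicate 3. Of the 8 GIMAP GTPases, which support survival of mature T cells, 2 rose and 1 fell in the paired TG test (4.32% and 2.84% of all genes), and the median log2 fold change was 0.19 with all 6 libraries and 0.41 without the library labelled TG DP replicate 3. Gimap4 was at 103, 46.6 and 42.2 CPM in TG CD8SP, against 14.8, 6.67 and 16.8 CPM in TG DP, and Gimap3 at 65.7, 35.7 and 27.3 CPM, against 12.3, 4.16 and 13.3 CPM. Gimap1 fell (adjusted p = 0.0372). Omitting that library gave 2.56 for Gimap4, 2.37 for Gimap3 and -0.64 for Gimap1 on the log2 scale. In WT 4 of the 8 rose and 1 fell (20.8% and 16.9% of all genes).

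MHC class I and antigen processing genes, whose products reach higher surface levels in mature thymocytes, had a smaller median change in TG than in WT. Their summed level was 2402, 2708 and 2148 CPM in TG CD8SP and 2085, 2053 and 1873 CPM in TG DP, against 5489, 5928 and 3496 CPM in WT CD8SP and 1752, 1539 and 1500 CPM in WT DP. The TG sums were thus below WT in CD8SP and above WT in DP. Of 19 genes 18 were tested, and 4 rose and 1 fell in the paired TG test, namely H2-K1, H2-Q7, B2m and Nlrc5 up and H2-T24 down (4.32% and 2.84% of all genes), while 15 rose and 0 fell of 18 in WT (20.8% and 16.9% of all genes). The median log2 fold change was 0.23 with all 6 TG libraries, 0.25 without the library labelled TG DP replicate 3 and 1.19 in WT. The difference between the TG and WT changes passed the threshold in 1 of the 18, H2-K1, with all 12 libraries (0.14% of all genes) and in 0 without the library labelled TG DP replicate 3 (0.193%).

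H2-K1, a classical class I heavy chain, was at 189, 205 and 111 CPM in TG CD8SP, against 50.3, 53.1 and 55.5 CPM in TG DP. Its WT levels were 923, 1110 and 466 CPM in CD8SP, against 40.4, 48.8 and 37.9 CPM in DP. All TG CD8SP libraries lay between the DP libraries and the WT CD8SP libraries. It rose by 1.61 ± 0.23 in the paired TG test (adjusted p = 0.0210) and by 4.31 ± 0.35 in WT, with 1.69 ± 0.30 in TG without the library labelled TG DP replicate 3 (adjusted p = 0.232). Class I genes are close in sequence, and reads could be split among them in counting.

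B2m, the light chain of class I molecules, was at 503, 771 and 480.4 CPM in TG CD8SP, against 323, 406 and 273 CPM in TG DP, and at 1522, 1585 and 848 CPM in WT CD8SP, against 226, 250 and 219 CPM in WT DP. It rose in the paired TG test, by 0.78 ± 0.17 (adjusted p = 0.0396). Nlrc5, the activator of class I genes, was at 45.3, 30.1 and 21.8 CPM in TG CD8SP, against 9.35, 7.55 and 13.2 CPM in TG DP, and rose by 1.66 ± 0.33 (adjusted p = 0.0380). In WT, Nlrc5 was at 125, 229 and 102 CPM in CD8SP, against 8.19, 15.05 and 11.96 CPM in DP, and rose by 3.71 ± 0.36. TG values without the library labelled TG DP replicate 3 were 0.67 ± 0.26 for B2m and 1.93 ± 0.36 for Nlrc5.

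Interferon-stimulated genes, which rise late in thymocyte maturation, had a median log2 fold change of 0.25 in TG with all 6 libraries, 0.46 without the library labelled TG DP replicate 3 and 1.56 in WT. Of 33 genes 31 were in the files, 30 were tested in TG and 31 in WT. In the paired TG test 2 rose, the oligoadenylate synthetases Oas2 and Oas3, and 1 fell, Stat2, shares near the 4.32% and 2.84% of all genes. In WT 28 rose and 1 fell, again Stat2 (20.8% and 16.9% of all genes). Irf7, a regulator of type I interferon genes, was at 27.8, 22.4 and 18.9 CPM in TG CD8SP and 16.7, 11.8 and 19.9 CPM in TG DP, with overlap, and at 69.9, 89.6 and 45.2 CPM in WT CD8SP, against 10.7, 10.7 and 10.03 CPM in WT DP. Its TG log2 fold change was 0.50 ± 0.26 with all 6 libraries and 0.68 ± 0.28 without the library labelled TG DP replicate 3. Oas3 was at 41.5, 22.2 and 19.9 CPM in TG CD8SP, against 15.4, 11.4 and 13.3 CPM in TG DP, and rose by 0.98 ± 0.23 (paired, adjusted p = 0.0488), against 3.002 ± 0.25 in WT. The TG value of Oas3 without that library was 1.05 ± 0.38.

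**Figure D3:**
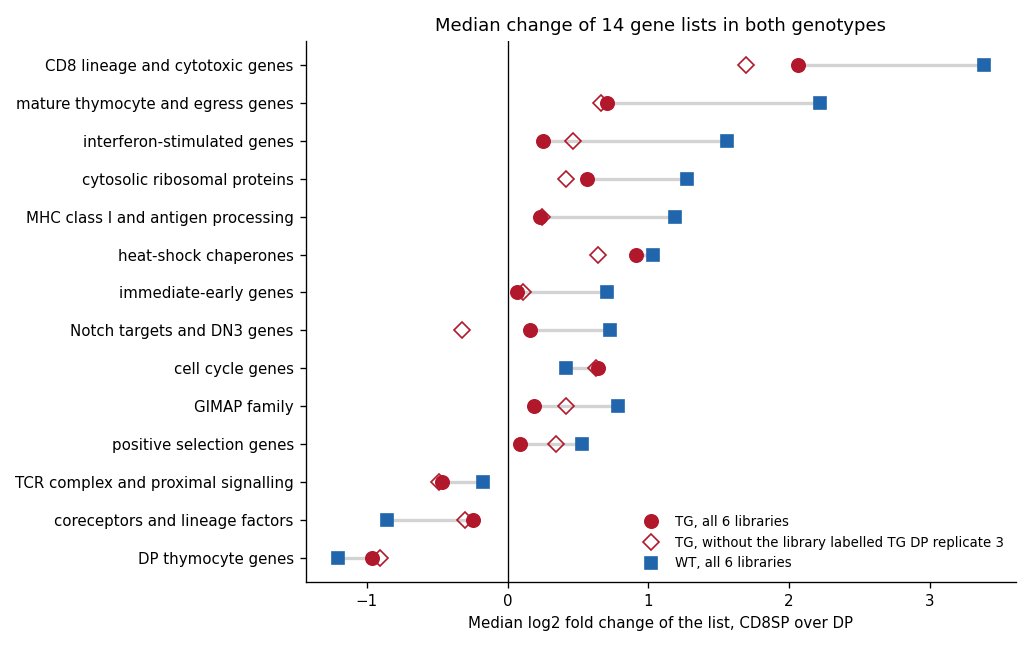
Median log2 fold change of CD8SP over DP for the tested members of 14 gene lists; filled circles are the 6 TG libraries, open diamonds the TG libraries without the one labelled TG DP replicate 3, and squares the 6 WT libraries. The lists of CD8 and cytotoxic genes, of mature genes, of interferon-stimulated genes and of MHC class I genes lie farther from 0 in WT, at 3.38, 2.22, 1.56 and 1.19, and the list of cell cycle genes has medians of 0.64 in TG and 0.41 in WT.

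Part of the cell cycle genes were higher in TG CD8SP. Of 40 cell cycle genes 14 rose and 0 fell in the paired TG test (4.32% and 2.84% of all genes), and 18 rose and 2 fell in WT (20.8% and 16.9%). As a median, the list was at a log2 fold change of 0.64 with all 6 TG libraries, 0.63 without the library labelled TG DP replicate 3 and 0.41 in WT. Mcm6, a subunit of the replicative helicase, was at 1066, 1140 and 689 CPM in TG CD8SP, against 335, 593 and 302 CPM in TG DP, and at 807, 704 and 629.8 CPM in WT CD8SP, against 289.6, 284 and 253 CPM in WT DP. It rose by 1.26 ± 0.20 in the paired TG test (adjusted p = 0.0246) and by 1.39 ± 0.17 in WT, and the difference between genotypes was -0.14 ± 0.37 (adjusted p = 0.940). Pcna, the sliding clamp of DNA polymerases, was at 793, 1058 and 687 CPM in TG CD8SP, against 329, 467 and 333 CPM in TG DP, and rose by 1.15 ± 0.17 (adjusted p = 0.0210). Gmnn, the inhibitor of repeated replication, rose by 1.02 ± 0.17 (adjusted p = 0.0252). With the library labelled TG DP replicate 3 left out these log2 values were 1.05 for Mcm6, 1.08 for Pcna and 0.96 for Gmnn, none past the threshold. Of 12 markers of double-negative and immature single-positive thymocytes, stages before DP, 2 rose and 0 fell in the paired TG test (4.32% and 2.84% of all genes). Their median was 0.151 with all 6 TG libraries, -0.345 without that library and 0.748 in WT. The part of such cells in the CD8SP libraries was not tested.

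Ccnd2, cyclin D2, was at 171, 82.1 and 84.7 CPM in TG CD8SP, against 23.1, 16.7 and 26.3 CPM in TG DP, and at 589, 558 and 285 CPM in WT CD8SP, against 14.9, 16.7 and 11.6 CPM in WT DP. It rose by 2.28 ± 0.25 in the paired TG test (adjusted p = 0.0165) and by 5.06 ± 0.34 in WT, and the difference between those changes was -2.70 ± 0.48 with an adjusted p of 0.0554, or 0.0191 when paired. Myc, a growth regulator and Notch target, was at 169.5, 330.4 and 135 CPM in TG CD8SP, against 35.2, 82.7 and 31.4 CPM in TG DP, and rose by 2.11 ± 0.16 (paired, adjusted p = 0.00617). The WT libraries held 191, 194 and 122 CPM in CD8SP, against 24.3, 24.6 and 23.999 CPM in DP. With the library labelled TG DP replicate 3 left out the TG change of Myc was 1.83 ± 0.53 (adjusted p = 0.232).

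Of 45 cytosolic ribosomal protein genes 9 rose and 0 fell in the paired TG test (4.32% and 2.84% of all genes), and 45 rose in WT (20.8%). The median log2 fold change was 0.57 with all 6 TG libraries, 0.41 without the library labelled TG DP replicate 3 and 1.27 in WT. Rpl3, a protein of the large subunit, was at 1289, 1652 and 1073 CPM in TG CD8SP, against 705, 809 and 531 CPM in TG DP, and at 1682, 1718 and 1218 CPM in WT CD8SP, against 464, 496 and 477 CPM in WT DP. It rose by 0.96 ± 0.17 in the paired TG test (adjusted p = 0.0277) and by 1.70 ± 0.19 in WT, with 0.81 ± 0.23 in TG without the library labelled TG DP replicate 3. Of 10 heat-shock chaperone genes tested, 5 rose in the paired TG test (4.32% of all genes) and 3 of 11 in WT (20.8%). The median was 0.91 with all 6 TG libraries, 0.65 without that library and 1.04 in WT. The mitochondrial chaperonin Hspd1 was at 474, 581 and 236 CPM in TG CD8SP, against 115, 186 and 116 CPM in TG DP. Its log2 fold change was 1.62 ± 0.35 with all 6 libraries and 1.503 ± 0.42 without that library. The summed level of the chaperone list varied widely within groups, at 4795, 9769 and 3993 CPM in TG DP and 15500, 6867 and 4497 CPM in WT DP. In each of the TG and WT groups the highest sum was in the library whose column name ends in N, and the cause was not tested.

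The genes of T-cell receptor signalling that passed in the TG fits given here all fell. Of 32 genes 2 fell and 0 rose in the paired TG test, where 2.84% of all genes fell, and 7 fell without TG CD8SP replicate 3, where 5.83% did. In WT 8 fell and 1 rose (16.9% and 20.8% of all genes). The median log2 fold change was -0.46 with all 6 TG libraries, -0.49 without the library labelled TG DP replicate 3 and -0.18 in WT. Lcp2, the adaptor SLP-76, was at 288, 245 and 391 CPM in TG CD8SP, against 523, 479 and 545 CPM in TG DP, and fell by 0.78 (paired, adjusted p = 0.0464), with -0.71 ± 0.24 without the library labelled TG DP replicate 3.

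Immediate-early genes, which answer receptor and handling signals within minutes, were mixed in TG. Of 22 tested, 4 fell and 0 rose in the paired TG test (2.84% and 4.32% of all genes), and 12 rose and 2 fell in WT (20.8% and 16.9%). Over the list the median was 0.069 with all 6 TG libraries, 0.11 without the library labelled TG DP replicate 3 and 0.71 in WT. Fos, a subunit of AP-1, was at 19.5, 60.3 and 5.04 CPM in TG CD8SP, against 2.40, 1.64 and 3.25 CPM in TG DP, with the TG CD8SP libraries far apart, and had a paired log2 value of 2.93 ± 1.10 (adjusted p = 0.185), and it rose without TG CD8SP replicate 3 (log2 4.004 ± 0.53, adjusted p = 0.0190). Btg2, an anti-proliferative gene, was at 204, 202 and 553 CPM in TG CD8SP, against 802, 660.4 and 908 CPM in TG DP, and fell by 1.48 (paired, adjusted p = 0.0321). Jund, another AP-1 subunit, fell by 0.88 in the paired TG test (adjusted p = 0.0492), and in WT its log2 fold change was -0.11 ± 0.33 (adjusted p = 0.806). TG values without that library were 3.77 ± 1.12 for Fos, -1.20 ± 0.48 for Btg2 and -0.92 ± 0.23 for Jund.

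For Notch targets and genes of the DN3 stage the list's median was 0.16 on the log2 scale with all 6 TG libraries and -0.33 without the library labelled TG DP replicate 3. Of 17 genes tested 3 rose and 0 fell in the paired TG test (4.32% and 2.84% of all genes), namely Myc, Gzma and Uaca. These 3 kept the same direction without that library, at 1.83, 1.94 and 1.22, against 2.08, 2.06 and 1.25 with all 6 libraries. Dtx1, a Notch-induced ubiquitin ligase, was at 275, 129 and 265 CPM in TG CD8SP and 525, 407 and 21.1 CPM in TG DP. Wild-type levels were 110.5, 139.8 and 90.4 CPM in CD8SP, against 20.01, 17.2 and 12.9 CPM in DP. TG DP replicates 1 and 2 were above every TG CD8SP library, while the library labelled TG DP replicate 3 was at the level of WT DP. The TG log2 fold change was -0.52 ± 0.96 with all 6 libraries (adjusted p = 0.773) and -1.07 ± 0.35 without that library (adjusted p = 0.232), against 2.78 ± 0.24 in WT.

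Lmo2 itself was at -0.029 ± 1.26 on the log2 scale with all 6 libraries (adjusted p = 0.992) and -0.61 ± 0.32 without the library labelled TG DP replicate 3 (adjusted p = 0.326). The remaining TG DP libraries, at 76.5 and 67.9 CPM, overlapped with TG CD8SP replicate 3 at 68.8 CPM. Of 21 tested genes of the LMO2 complex and of stem cells 0 rose and 1 fell in the paired TG test, namely Ssbp2, a stabiliser of LDB1, at 64.8, 85.8 and 185 CPM in TG CD8SP, against 245, 234 and 281 CPM in TG DP (adjusted p = 0.0377). That count is near the 2.84% of all genes that fell, and the list's median was -0.028 with all 6 libraries and -0.25 without the library labelled TG DP replicate 3. Ldb1, the scaffold that LMO2 binds, was at 259.5, 289 and 393 CPM in TG CD8SP, against 458, 438 and 395 CPM in TG DP, with a paired adjusted p of 0.158. Of 6 E and Id protein genes tested 1 rose in the paired TG test (4.32% of all genes), Id2, an inhibitor of E proteins, at 20.1, 40.1 and 12.7 CPM in TG CD8SP, against 8.88, 9.43 and 5.55 CPM in TG DP. Omitting that library gave -1.11 ± 0.44 for Ssbp2, -0.52 ± 0.22 for Ldb1 and 1.39 ± 0.49 for Id2, and a median of 0.057 for the E and Id genes, against 0.032 with all 6 libraries.

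Because no gene passed in TG with all 6 libraries or without the library labelled TG DP replicate 3, the largest changes were taken from the paired test, a choice made after the values were seen. They were ranked among genes with a mean of at least 5 CPM over the 6 TG libraries and groups that did not overlap, leaving out predicted genes. Within these limits the 12 largest increases ran from 2.69 for Ms4a4b to 3.55 for Adam19 on the log2 scale, and the 12 largest decreases from -1.96 for Cfap74 to -6.54 for Smoc1. All 24 moved the same way in WT and passed there, where 20.8% of all genes rose and 16.9% fell. Of all genes that rose or fell in the paired test, 94.1% and 84.7% did so in WT too, so this is not particular to the 24.

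Adam19, a membrane metalloprotease, was at 124, 46.7 and 34.1 CPM in TG CD8SP, against 16.3, 4.498 and 1.47 CPM in TG DP, and rose by 3.55 ± 0.33 (paired, adjusted p = 0.0124). Cd7, a costimulatory receptor of T and NK cells, was at 70.9, 84.6 and 28.0 CPM in TG CD8SP, against 10.2, 5.90 and 2.37 CPM in TG DP, and rose by 3.38 ± 0.26 (adjusted p = 0.00617). Adgrg5, an adhesion receptor, was at 36.9, 26.7 and 16.7 CPM in TG CD8SP, against 4.05, 1.69 and 2.62 CPM in TG DP (paired log2 3.25 ± 0.30). Gpr25, a G-protein-coupled receptor, was at 29.3, 35.9 and 17.7 CPM in TG CD8SP, against 3.37, 5.61 and 3.18 CPM in TG DP, and at 22.8, 21.0 and 16.7 CPM in WT CD8SP, against 2.25, 1.82 and 1.89 CPM in WT DP. In all 4 the TG groups did not overlap, which the ranking required. The TG changes without the library labelled TG DP replicate 3 were 2.70 for Adam19, 2.90 for Cd7, 3.20 for Adgrg5 and 2.61 for Gpr25, each with an adjusted p of 0.232.

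Smoc1, a secreted calcium-binding matrix protein, was at 0.0339, 0.0421 and 2.56 CPM in TG CD8SP, against 31.0, 9.48 and 105 CPM in TG DP. TG CD8SP replicates 1 and 2 held 1 read each, and the DP libraries differed widely among themselves, with the highest in the one labelled replicate 3. It fell, with a fitted log2 fold change of -6.54, in the paired test (adjusted p = 0.0246) and was at -4.56 ± 1.65 without that library (adjusted p = 0.242). Art1, an ADP-ribosyltransferase, was at 2.03, 4.08 and 4.49 CPM in TG CD8SP, against 11.9, 15.04 and 12.7 CPM in TG DP, and fell by 1.98 (paired, adjusted p = 0.0233). With the library labelled TG DP replicate 3 left out the value of Art1 was -1.94.

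Whether the change of a gene differed between the genotypes was tested as the TG change minus the WT change over 12 libraries. All 17 genes that passed of 12186 (0.14%) had a lower value in TG, and so did all 24 of 12436 (0.193%) without the library labelled TG DP replicate 3. The paired form of this test gave 62 genes (0.509%), 61 lower (0.501%) and 1 higher (0.00821%) in TG. Leaving out any of 9 of the 12 libraries gave 0 genes, namely each TG CD8SP library, TG DP replicate 1, WT CD8SP replicate 1 or 2, or any WT DP library. Leaving out WT CD8SP replicate 3 gave 52 and TG DP replicate 2 gave 15.

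Il2rb, Ctsw and Prf1 of the cytotoxic list were among the genes that passed both with and without that library, at -3.09 ± 0.48, -3.22 ± 0.48 and -2.88 ± 0.40 with all 12 libraries (adjusted p = 0.0414 each).

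Rarg, the retinoic acid receptor gamma, was at 13.0, 13.6 and 6.68 CPM in TG CD8SP, against 2.36, 3.10 and 1.85 CPM in TG DP, and at 60.5, 76.3 and 32.8 CPM in WT CD8SP, against 1.15, 0.750 and 0.787 CPM in WT DP (difference -3.79 ± 0.52, adjusted p = 0.0414). Lfng, the Fringe glycosyltransferase that tunes Notch receptors, was at 41.2, 33.8 and 20.4 CPM in TG CD8SP, against 5.19, 4.35 and 5.90 CPM in TG DP, and at 137, 141 and 77.5 CPM in WT CD8SP, against 1.56, 3.36 and 2.12 CPM in WT DP (difference -3.03 ± 0.47, adjusted p = 0.0414). Lfng passed with all 12 libraries but not without the library labelled TG DP replicate 3 (adjusted p = 0.0506). H2-K1 and Irf7 likewise passed with all 12 libraries, at -2.63 ± 0.42 and -2.19 ± 0.37, and had adjusted p of 0.0536 and 0.0617 without that library. In the paired form the changes of Itgae, Klf2, Ccr7, Il7r, Runx3, B2m, Oas3 and Ccnd2 were also lower in TG past the threshold, with differences of -4.24, -2.67, -2.59, -2.17, -1.75, -1.66, -1.996 and -2.70.

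Nkg7, Dtx1, Arhgef10l, Cyth4 and Pou2f2 missed the threshold with all 12 libraries and passed without the library labelled TG DP replicate 3. Nkg7 had a difference of -4.99 ± 0.92 with all 12 libraries (adjusted p = 0.0636) and -5.42 ± 0.78 without that library (adjusted p = 0.0346). Dtx1 had -3.28 ± 1.08 with all 12 libraries (adjusted p = 0.417) and -3.83 ± 0.44 without that library (adjusted p = 0.0154). Cyth4, an exchange factor of ARF GTPases, was at 65.1, 98.9 and 68.6 CPM in TG CD8SP and 48.6, 114 and 24.7 CPM in TG DP, and at 136, 187 and 91.4 CPM in WT CD8SP, against 17.3, 14.8 and 14.7 CPM in WT DP.

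**Figure D4:**
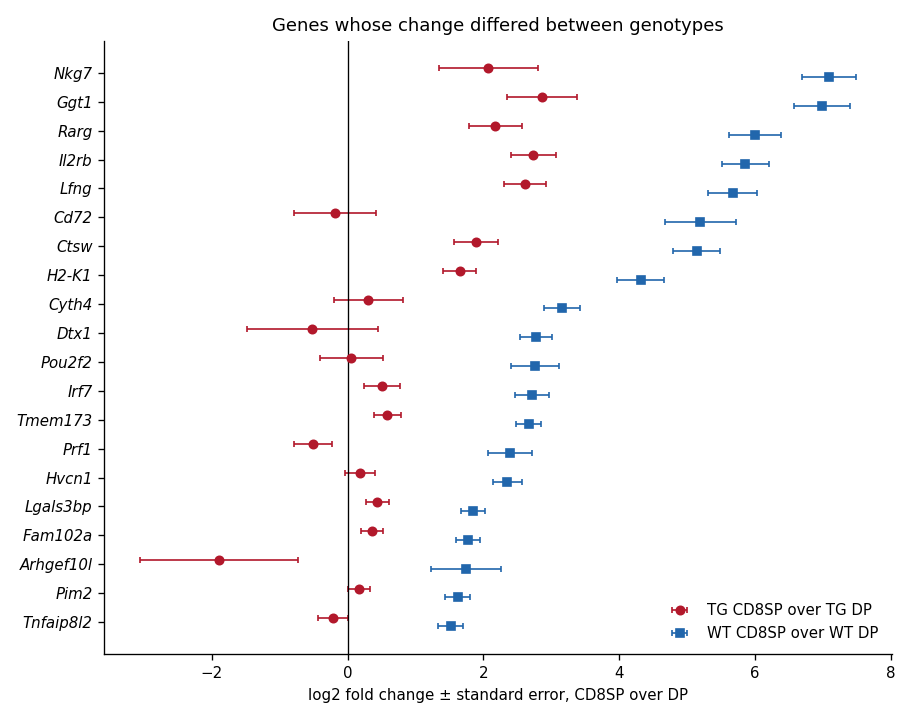
Log2 fold change of CD8SP over DP with its standard error, in TG (circles) and in WT (squares), for 20 named genes whose change differed between genotypes with all 12 libraries or without the library labelled TG DP replicate 3; TG values use all 6 libraries. Every TG value lies left of its WT value, from Nkg7 at 2.07 in TG and 7.09 in WT to Tnfaip8l2 at -0.21 in TG and 1.52 in WT.

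**Figure D5:**
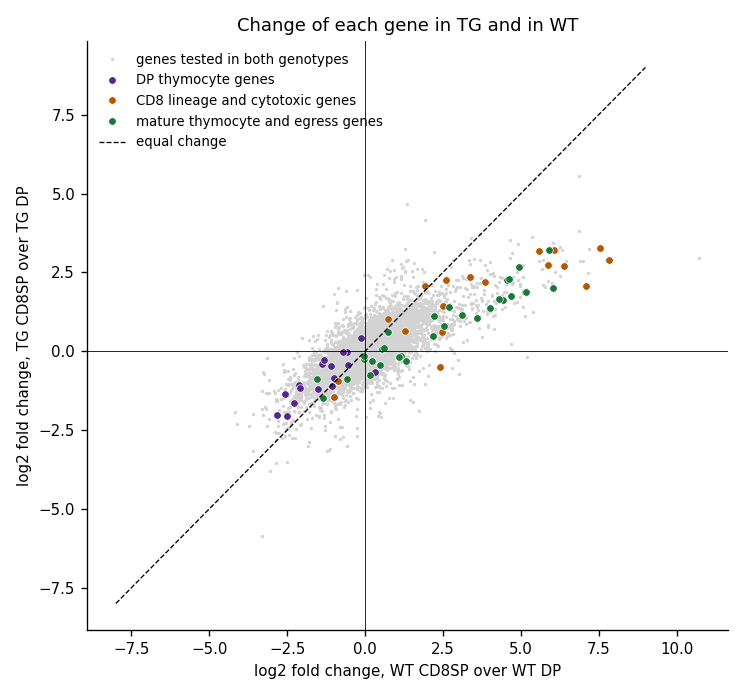
Log2 fold change of CD8SP over DP in TG (vertical axis, all 6 libraries) against WT (horizontal axis) for the genes tested in both genotypes; coloured points are the DP genes, the CD8 and cytotoxic genes and the mature and egress genes, and the dashed line marks equal change. CD8, cytotoxic and mature genes that rose in WT lie mostly above 0 and below the line, with medians of 2.07 in TG and 3.38 in WT for the CD8 and cytotoxic list. Choosing genes that rose in WT by itself favours points below the line.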

How the data were processed

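RNA-seq read counts per gene of sorted thymocytes were analysed. The counts and the FPKM values are those the authors deposited, as raw read counts per gene and as fragments scaled by gene length and library size; HISAT, Bowtie2, MACS2, DESeq2 and the builds mm10 and mm9 are named in the submitters' processing notes, without roles. Of the columns, 4 name no sample and were not used. The members and the gene lists were chosen with earlier results of these data known. The tests ran in R 4.3.3 with edgeR 4.0.16 (filterByExpr with a minimum count of 10, TMM scaling, robust quasi-likelihood fit, Benjamini-Hochberg 0.05) within TG, within WT and as the difference over 12 libraries, and were checked on simulated data. The simulated libraries had no replicate effect and no outlying library, so the check does not cover these features of the data. DESeq2 1.42.0, other scalings and filters, a fit of all libraries, a term for the suffix N of column names, leaving out each library and the replicate number as a block were alternatives. Same-numbered CD8SP and DP libraries deviated together (correlations over 12186 genes of 0.309, 0.59 and 0.191 in TG and 0.451, 0.422 and 0.109 in WT, all over 0.1), so the numbers were taken to pair the samples, from the data and not from a stated design. The replicates 3 were the weakest pairs, and 2 unlike-numbered pairs were closer: 0.234 for TG CD8SP 1 with TG DP 3 and 0.287 for WT CD8SP 2 with WT DP 3. The suffix N marks both TG replicates 2 and both WT replicates 1, the pairs with 0.59 and 0.451. In these pairs a shared sample and a shared suffix cannot be told apart. Named genes were Lmo2, 10 stage markers, the 3 lowest adjusted p of every list, and the largest interaction values. Since no gene passed with all TG libraries, the rule was applied to the fit without TG DP replicate 3; other genes were chosen after their values were seen. Totals were 21432962 to 28820075 reads per library. The closest libraries within a group were WT DP replicates 2 and 3, with a Spearman correlation of 0.998. The chi-square per degree of freedom between their counts was 8.1, against 37.7 to 167 for the other pairs within a group. A floor of 3 counts covers counting error only. Promoters are from RefSeq, GRCm38.p6. No source used here says whether counting used strand. Some genes that met the rule are not reported here.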

Additional observations from a re-analysis of the deposited data

Results flagged for a closer look

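The test of TG maturation minus WT maturation marked the genes below, as differing between the genotypes, each with a lower change in TG than in WT. With all 12 libraries the differences on the log2 scale were -5.36 for Cd72, -4.10 for Ggt1, -3.79 for Rarg, -3.22 for Ctsw, -3.09 for Il2rb, -3.03 for Lfng and -2.88 for Prf1. They were -2.63 for H2-K1, -2.19 for Irf7, -2.14 for Hvcn1, -2.06 for Tmem173, -1.71 for Tnfaip8l2, -1.42 for Pim2, -1.39 for Fam102a and -1.38 for Lgals3bp.

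Without the library labelled TG DP replicate 3 the differences were -5.42 for Nkg7, -4.95 for Cd72, -4.30 for Ggt1, -4.19 for Arhgef10l, -3.96 for Rarg, -3.83 for Dtx1, -3.42 for Ctsw and -3.23 for Il2rb. They were -3.21 for Cyth4, -3.03 for Pou2f2, -2.91 for Prf1, -2.33 for Hvcn1, -2.21 for Tmem173, -1.47 for Pim2, -1.44 for Lgals3bp and -1.43 for Fam102a.

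Cd72, a lectin-like receptor best known from B cells, was at 0.780, 0.673 and 0.687 CPM in TG CD8SP and 0.322, 0.919 and 1.19 CPM in TG DP, against 13.5, 24.2 and 9.95 CPM in WT CD8SP and 0.138, 0.513 and 0.629 CPM in WT DP. Among those listed it had the largest difference with all 12 libraries. It was near the floor outside WT CD8SP, as 3 reads would be 0.138 CPM in WT DP replicate 1. Its mean over the 12 libraries was under the 5 CPM asked of genes named for the interaction. Tmem173, which encodes the DNA-sensing adaptor STING, was at 41.5, 38.6 and 40.5 CPM in TG CD8SP and 31.5, 27.8 and 20.6 CPM in TG DP, against 67.2, 74.9 and 52.1 CPM in WT CD8SP and 10.2, 9.40 and 11.3 CPM in WT DP.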

How the results depend on the processing

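For TG CD8SP over TG DP, 0 genes passed with all 6 libraries; the count was 841 with the replicate block, 1208 with DESeq2, 13 without a filter on low counts, 1657 with all RNA libraries in 1 fit and 231 with a term for the suffix N. It was 0 to 1262 with 1 library left out, 1072 with both replicates 3 left out and 4686 with the block and the library labelled TG DP replicate 3 left out, a fit with 1 residual degree of freedom. Without that library as the starting point, 0 genes passed, against 4686 with the block, 751 with DESeq2, 845 with all libraries, 6 with the suffix term and 0 to 1072 with a further library left out. The WT count of 4408 ran from 2163 to 5495 with 1 library left out. The difference between genotypes gave 17 genes, against 62 with the block, 168 with DESeq2, 29 without a filter, 11 with all libraries, 0 with the suffix term and 0 to 52 with 1 library left out. Without the library labelled TG DP replicate 3 it gave 24, against 263 with the block and with DESeq2, 50 without a filter, 14 with all libraries and 0 to 212 with a further library left out. The cause was not tested.

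Of 139 genes followed over 17 settings, 15 changed sign in at least 1, and the 21 genes of the difference between genotypes kept theirs over 21 settings, while 191 of the values missed a threshold that the same gene passed in the starting fit and 11 passed one it had missed. With 1 TG library left out at a time, the log2 fold change of TG CD8SP over TG DP ran from -0.612 to 0.484 for Lmo2, -1.071 to 0.062 for Dtx1, -1.085 to 0.215 for Zbtb7b, -1.011 to 0.85 for Rora, -0.289 to 0.326 for Pou2f2, -0.122 to 0.222 for Nfil3, -0.051 to 0.167 for Id3 and -0.077 to 1.093 for Cyth4. For genes on the marker lists of other cells it ran from -0.809 to 3.058 for H2-Aa, -0.82 to 2.841 for Cd74, -0.284 to 4.763 for Xcr1, -0.174 to 0.966 for Klrb1c, -0.803 to 3.686 for Sox13, -0.061 to 1.681 for Kit and -4.123 to 5.579 for Cpa3, each lowest without TG CD8SP replicate 2. Lmo2 was 0.538 with the replicate block and 0.01 with all libraries in 1 fit, and Dtx1 was 0.018 with the block. With both replicates 3 left out, Pou2f2 was -0.131, Nfil3 -0.213 and Cyth4 -0.001. With the block and the library labelled TG DP replicate 3 left out, Rora was 0.217, Pou2f2 -0.134 and Nfil3 -0.234. With 3 libraries a group, small changes of genes read at low depth could not be told from the spread between libraries.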
